A study of Homo sapiens with 6 samples.

Results

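The open chromatin at 5 genes that write or remove DNA methylation, DNMT3A, DNMT3B, TET1, TET2 and TET3, was compared between sorted populations of the human embryonic stem cell line WA09. An open region belonged to a locus when its midpoint fell in a fixed hg19 window set for the gene, a rule that uses position only. Whether each window holds the whole gene was not determined. This gave 49 of the 118556 regions counted, with 14 at DNMT3A, 9 at DNMT3B, 6 at TET1, 12 at TET2 and 8 at TET3. Regions are numbered within each locus from the low-coordinate end.

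The assay, FAST-ATAC, treats permeabilised cells with Tn5, a transposase that inserts sequencing adapters where DNA is not packed away, so that the reads in a region count its insertions. WA09 cells were sorted with antibodies against GCTM-2, CD9 and EPCAM. Of the 6 samples, 3 were cells with high GCTM-2, CD9 and EPCAM (GCTM-2highCD9highEPCAMhigh, the high population) and 3 were cells with intermediate GCTM-2 and CD9 (GCTM-2midCD9mid, the mid population, whose titles read low). The marker labels name EPCAM for the high population only, and the treatment label names it for neither, and all samples come from 1 cell line. In such bulk samples, fewer cells with an open region and a less open region per cell cannot be told apart.

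DNMT3A and DNMT3B are the de novo methyltransferases, which place methyl groups on unmethylated CpG sites. DNMT1, helped by UHRF1, copies methylation onto the new strand after replication, and DNMT3L is a catalytically inactive partner of the DNMT3 enzymes. TET1, TET2 and TET3 oxidise 5-methylcytosine, and the glycosylase TDG removes the oxidised bases so that repair restores cytosine. DNMT3B and TET1 are known for strong expression in pluripotent cells.

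Called regions lay only in the DNMT3B and TET2 windows among the 5 loci. For each of these genes, the 250 bases before the most upstream start in the RefSeq promoter table are shown, in GRCh38.p14. Every CpG, the site on which the enzymes act, is in capitals. The stretches were picked by gene and not by the position of a called region. The DNMT3B stretch is chr20:32779602-32779851 on the plus strand and precedes a start 17467 bp inside the gene. The TET2 stretch is chr4:105145625-105145874 on the plus strand and precedes the start of the gene.
DNMT3B: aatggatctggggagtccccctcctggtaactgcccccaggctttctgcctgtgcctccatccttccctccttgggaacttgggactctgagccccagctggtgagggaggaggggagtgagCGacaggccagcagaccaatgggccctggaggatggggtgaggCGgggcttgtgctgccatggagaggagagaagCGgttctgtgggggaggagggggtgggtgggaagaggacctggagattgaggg
TET2: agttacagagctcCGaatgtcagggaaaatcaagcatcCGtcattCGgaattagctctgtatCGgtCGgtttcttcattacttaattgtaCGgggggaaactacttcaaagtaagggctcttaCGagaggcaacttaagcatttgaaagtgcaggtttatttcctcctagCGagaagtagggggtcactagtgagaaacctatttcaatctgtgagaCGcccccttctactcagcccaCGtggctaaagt
The DNMT3B stretch holds 3 CpGs and the TET2 stretch 10. At least 3 CpGs stand in 77.1% of the 35116 promoter entries, and at least 10 in 52.2%. The corresponding stretches of DNMT3A, TET1 and TET3 hold 12, 9 and 37, and only the last is high, since 4% of entries hold as many. The open regions are in hg19, so whether these stretches lie in one of them, called or not, was not determined.

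Total counts in the regions ran from 15486251 to 29025274 per sample, while the 49 regions held 9306 to 18933 reads per sample, between 0.0540% and 0.0652% of the total. The smallest count among them was 25, so every region of the 5 loci was covered in every sample. Levels are given as CPM, counts scaled to a common library size with TMM factors. At 4 genes of the pluripotent state, POU5F1, NANOG, SOX2 and LIN28A, 12 regions were listed, with mean summed levels of 48.6, 28.1, 81.2 and 92.6 CPM in the high population and 65.0, 36.9, 104.8 and 137.5 CPM in mid. All 12 had a negative log2 fold change of high over mid (median -0.40), and 2 were called higher in mid, 1 at POU5F1 and 1 at LIN28A, so these markers moved in the direction of DNMT3B, and their part in that result was not tested. Both called ones were wide (5123 and 5482 bp). Of all regions 3.77% were called higher in mid, and of those of 2000 bp or wider 20.7%. A negative value was seen in 55152 of all 118556 regions and in 10135 of the 14039 of 2000 bp or wider. In windows at 3 genes of differentiated cells, 1 region was listed at ALB (mean 1.43 CPM in high and 1.33 CPM in mid) and 1 at CD3E (8.91 and 11.98 CPM). At HBB 0 were listed, only meaning that no region was called there. The CD3E region had a log2 fold change of -0.44 (adjusted p = 0.0669, edgeR's quasi-likelihood test), near the median of the pluripotency genes, and the ALB region one of 0.06.

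Every region of the table entered 1 edgeR quasi-likelihood fit that carried the replicate number as a block. A region was called where its p, adjusted by Benjamini-Hochberg, was under 0.01. Of all regions, 3.77% were called higher in the mid population and 2.32% higher in the high population. Of the 49 regions, 5 were called higher in the mid population, all in the DNMT3B window, and 1 was called higher in the high population, in the TET2 window. To which gene each called region belongs was not determined. The median log2 fold change of high over mid was 0.00 for the 49 regions and 0.03 for all regions. With no replicate block, 1.11% of all regions were called higher in mid and 0.236% higher in high, and the 5 loci kept 2 mid calls, DNMT3B regions 4 and 9, and 0 high calls (3 of the 49 regions were higher in high at an unadjusted p under 0.05). DESeq2 with the block called 3 mid regions and 0 high regions (2 at an unadjusted p under 0.05), and gave no adjusted p for 19 of the 49. The share of all regions at an unadjusted p under 0.05 was not determined, so counts at that threshold, here and below, have no background.

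**Figure D1:**
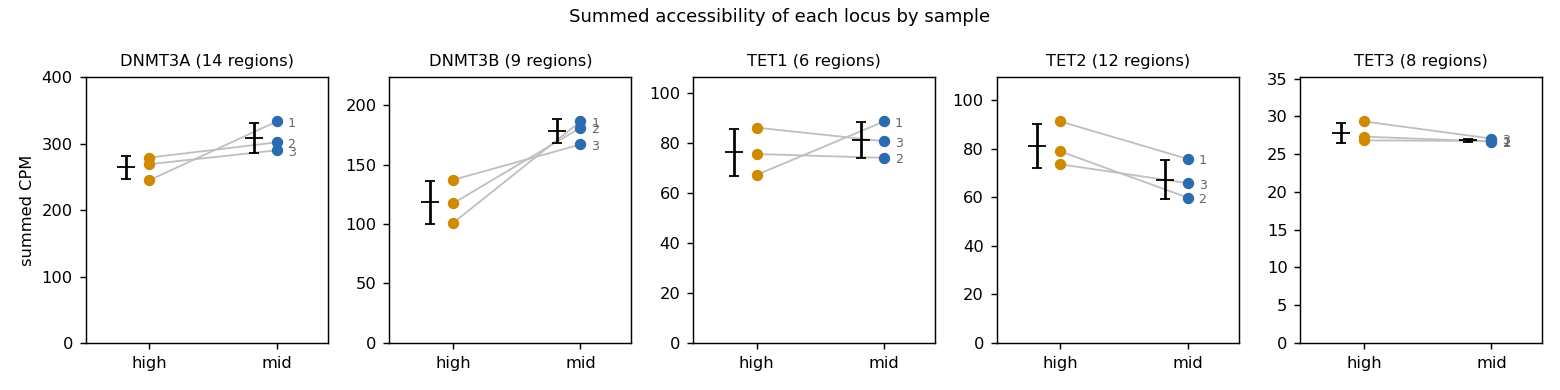
Summed CPM of the open regions of each locus (y axis, from 0, a different scale in each panel) in the 3 high and 3 mid samples. Points are samples, grey lines join same-numbered replicates, and the black mark with its bar is the mean ± SD. At DNMT3B every high sample (100.8 to 137.1 CPM) lies below every mid sample (166.9 to 186.3 CPM).

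DNMT3B was the locus with most of the called regions. Its summed level was 100.8, 117.3 and 137.1 CPM in high replicates 1, 2 and 3, and 186.3, 181.0 and 166.9 CPM in their mid counterparts. Every high sample was below every mid sample, with a mean of 118.4 ± 18.20 CPM (SD, n = 3) against 178.1 ± 10.04 CPM (SD, n = 3), a 1.51-fold higher level in mid. The log2 ratios of high to mid in the same-numbered pairs were -0.89, -0.63 and -0.28. DNMT3A also had every high sample below every mid sample, with 245, 279 and 269 CPM in high and 334, 302 and 290 CPM in mid, but the difference was smaller (1.17-fold). TET2 went the other way in each pair, with 91.2, 78.9 and 73.6 CPM in high and 75.7, 59.8 and 65.8 CPM in mid, and the populations overlapped because mid replicate 1 exceeded high replicate 3. TET1 (67.2, 75.5 and 86.1 CPM in high, and 88.6, 74.0 and 80.7 CPM in mid) and TET3 (26.82, 27.32 and 29.33 CPM in high, and 26.74, 26.66 and 27.06 CPM in mid) differed by less than the larger SD of their samples, with means of 76.3 ± 9.47 against 81.1 ± 7.30 CPM at TET1 and 27.82 ± 1.332 against 26.82 ± 0.2117 CPM at TET3 (SD, n = 3 each). These totals are sums over chosen regions and are given with no test. The DNMT3B total includes regions at both ends of its window, and to which gene those belong was not determined.

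Per kilobase of open region, the 5 loci lay closer together than their totals. In the mid population the level was 9.16 ± 0.667 CPM per kb at DNMT3A, 9.12 ± 0.514 at DNMT3B, 8.43 ± 0.759 at TET1, 5.05 ± 0.605 at TET2 and 4.16 ± 0.0328 at TET3 (SD, n = 3 each). DNMT3A, DNMT3B and TET1 were within their spread of each other. In the high population the order was TET1 (7.931 ± 0.984), DNMT3A (7.85 ± 0.520), TET2 (6.11 ± 0.680), DNMT3B (6.06 ± 0.931) and TET3 (4.31 ± 0.206), so that DNMT3B stood beside TET2 there, the neighbours TET1 and DNMT3A and the neighbours TET2 and DNMT3B each lying within their spread. Open regions covered 22.5% of the DNMT3A window and 21.7% of the DNMT3B window, against 5.66%, 7.39% and 6.45% of the TET1, TET2 and TET3 windows.

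A ratio within a library does not depend on how libraries are scaled. The reads at DNMT3B were 1.11, 1.49 and 1.86 times those at TET2 in high replicates 1, 2 and 3, and 2.46, 3.03 and 2.54 times in mid replicates 1, 2 and 3. Set against DNMT3A, the other de novo enzyme, they were 0.411, 0.420 and 0.509 times in high and 0.559, 0.599 and 0.575 times in mid. Neither ratio overlapped between the populations.

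The widest region of the DNMT3B locus, region 4 (chr20:31348373-31353342, 4970 bp), also held the most reads. It had 29.9, 33.7 and 34.0 CPM in high replicates 1, 2 and 3, and 60.3, 63.4 and 57.1 CPM in mid replicates 1, 2 and 3. The lowest mid sample stood well above the highest high sample, and the region fell in the high population with a log2 fold change of -0.89 (SE 0.12, adjusted p = 9.48e-07, edgeR's quasi-likelihood test), 1.85-fold higher in mid. This was the only one of the 6 called regions that kept its call in all 25 alternative fits, where its log2 fold change lay between -0.96 and -0.51 and its adjusted p between 1.68e-10 and 0.00605. The 25 include fits without a single sample, which in effect repeat those without its pair.

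On the low-coordinate side of region 4, regions 1 to 3 were called in the same direction. Region 3 (chr20:31339289-31340630) had 2.40, 4.68 and 5.37 CPM in high and 11.8, 7.963 and 7.51 CPM in mid. Replicate 1 was the most extreme sample of both populations here, and the log2 fold change of -1.12 (SE 0.21, adjusted p = 0.000202, edgeR) was -0.64 without high replicate 1 (adjusted p = 0.0181) and -0.61 without mid replicate 1 (adjusted p = 0.0343). The fit holds the block, so a sample without its partner adds nothing to the comparison. Both fits thus repeat the one without the replicate 1 pair (-0.64, adjusted p = 0.0237, edgeR). DESeq2 did not call this region (adjusted p = 0.118). Region 2 (chr20:31337150-31338620) had 7.53, 6.40 and 7.41 CPM in high and 13.8, 10.4 and 9.77 CPM in mid (log2 fold change -0.65, SE 0.17, adjusted p = 0.00689, edgeR). Region 1 (chr20:31330041-31333305) had 15.7, 14.9 and 16.9 CPM in high and 28.8, 23.5 and 20.9 CPM in mid (log2 fold change -0.61, SE 0.14, adjusted p = 0.00245, edgeR). High and mid samples did not overlap in any of the 3, which adds no separate support, because the calls came from the same samples.

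At the other end of the window, region 9 (chr20:31407135-31408964) had 18.0, 16.9 and 20.4 CPM in high and 33.6, 31.5 and 27.7 CPM in mid. Again the populations did not overlap, with a log2 fold change of -0.74 (SE 0.14, adjusted p = 0.000142, edgeR). In the RefSeq gene order, DNMT3B is flanked by the protein-coding genes COMMD7 and MAPRE1, and to which gene the regions at the ends of the window belong was not determined. Shortening each window by 10 kb at both ends removed regions 1, 2 and 3 and left 2 mid calls, regions 4 and 9. Leaving out high replicate 2 or mid replicate 2 ended the calls of regions 1, 2 and 9 (adjusted p for region 1 of 0.0979 and 0.148). Leaving out mid replicate 1 also ended those of regions 1 and 2 (0.0127 and 0.0375), and leaving out high replicate 1 that of region 2 (0.0227). Each of these fits takes a whole pair out of the comparison, so none singles out a sample.

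**Figure D2:**
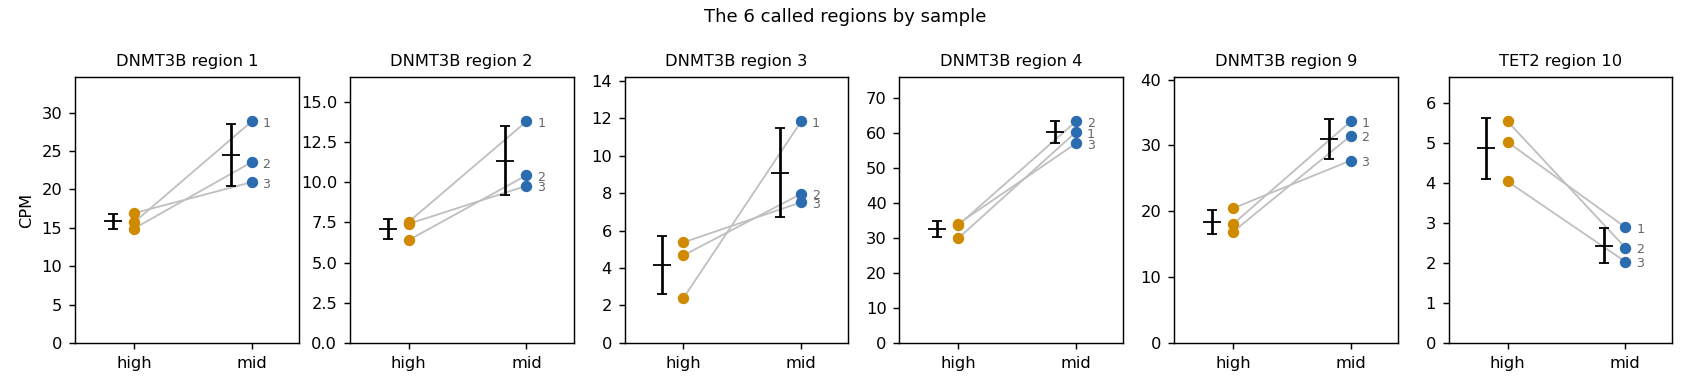
CPM (y axis, from 0) of the 6 called regions in each sample, high in orange and mid in blue. Grey lines join same-numbered replicates, and black marks are the mean ± SD (n = 3). High and mid samples do not overlap in any panel, and TET2 region 10 is the one that is higher in high. The regions were picked by adjusted p from these same samples, so the lack of overlap is not separate support. At DNMT3A, with 0 calls, 6 of 14 regions did not overlap either. The share of all regions without overlap was not determined, so this count has no background.

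Between these called regions, DNMT3B regions 5 to 8 were not called. Region 6 (chr20:31366983-31369340) had 10.4, 15.8 and 21.1 CPM in high and 12.7, 17.5 and 18.4 CPM in mid, which overlapped fully (log2 fold change -0.07, SE 0.15, adjusted p = 0.809, edgeR). Region 8 (chr20:31394807-31396077), with the most positive value of the locus, had 5.31, 9.60 and 11 CPM in high and 7.29, 6.79 and 7.90 CPM in mid (log2 fold change 0.20, SE 0.18, adjusted p = 0.516). This value was 0.47 without the replicate 1 pair (0.46 and 0.49 without its high or mid sample alone, which repeats that fit). It was 0.03 or 0.04 without replicate 2 or 3, as a pair or as a single sample, and 0.57 with offsets from neighbouring regions (adjusted p = 0.0184, edgeR). Regions 5 and 7 had log2 fold changes of -0.42 (adjusted p = 0.0887) and 0.05 (adjusted p = 0.898). In all 4 regions high replicate 1 was the lowest and high replicate 3 the highest of the high samples. The reads of region 4 were 2.86, 2.13 and 1.61 times those of region 6 in the high samples and 4.74, 3.62 and 3.10 times in the mid samples, so within each library the widest region was the larger one, and by more in every mid sample. DNMT3B is transcribed toward higher coordinates, which places regions 5 to 8 downstream of region 4.

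**Figure D3:**
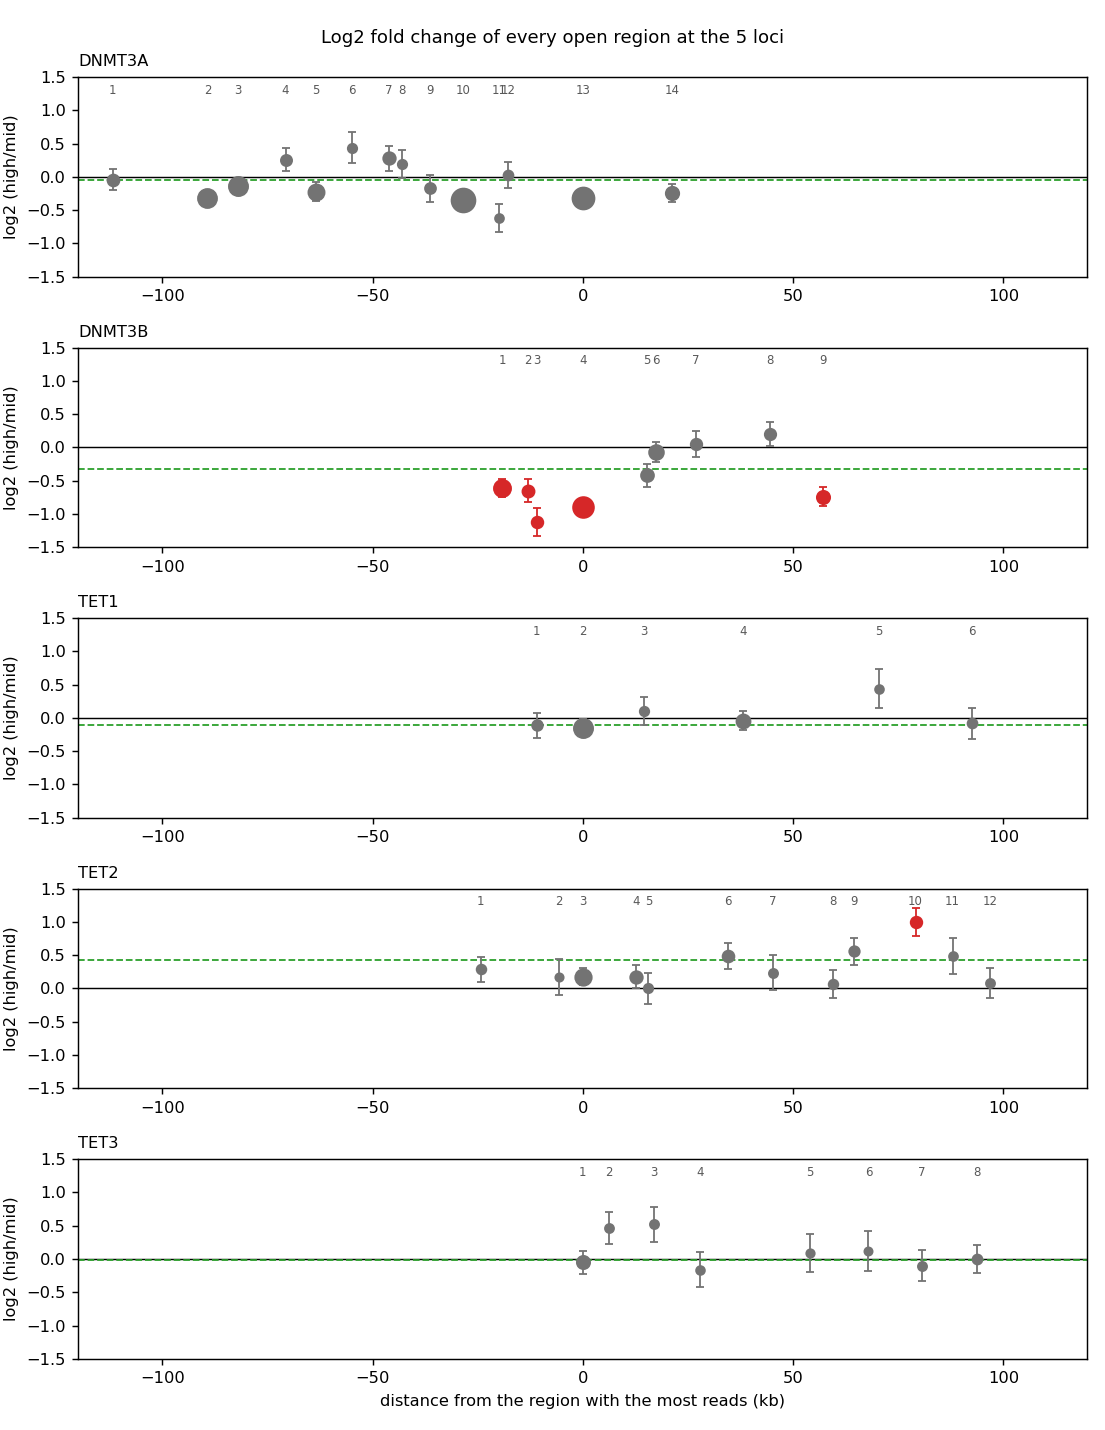
Log2 fold change of high over mid (y axis) of each of the 49 regions, with its SE as a bar, against distance in kb from the region of the locus with the most reads (x axis). Red points have an adjusted p under 0.01, point size grows with region width, numbers at the top are region numbers, and the green dashed line is the median of the surrounding regions. In the DNMT3B window the 5 red points lie on both sides of 4 grey ones.

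The regions around DNMT3B and TET2 mostly had the same sign of change as the loci. Within 500 kb on either side of the DNMT3B window, 48 of 54 regions had a negative log2 fold change, with a median of -0.33 and 5 (9.26%) called higher in mid. Of all regions on chromosome 20, 8.72% were called higher in mid, against 3.77% of all regions. Around TET2, all 33 regions had a positive log2 fold change, with a median of 0.43 and 3 (9.09%) called higher in high. Of all regions on chromosome 4, 4.84% were called higher in high, against 2.32% of all regions. Around DNMT3A, TET1 and TET3 the medians were -0.05, -0.10 and -0.02, over 45, 37 and 61 regions. The medians of whole chromosomes were -0.25 on chromosome 20 (DNMT3B), 0.24 on chromosome 4 (TET2), 0.12 on chromosome 2 (DNMT3A and TET3) and -0.01 on chromosome 10 (TET1). With offsets taken in each sample from the running median of a region and the 50 on each side of it, an alternative added after the data were seen, DNMT3B regions 4 and 3 kept their calls (log2 fold changes of -0.51 and -0.75, adjusted p = 5.41e-05 and 0.00940, edgeR). Under the same offsets DNMT3B regions 1, 2 and 9 and TET2 region 10 lost theirs, with log2 fold changes of -0.24, -0.28, -0.36 and 0.57.

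**Figure D4:**
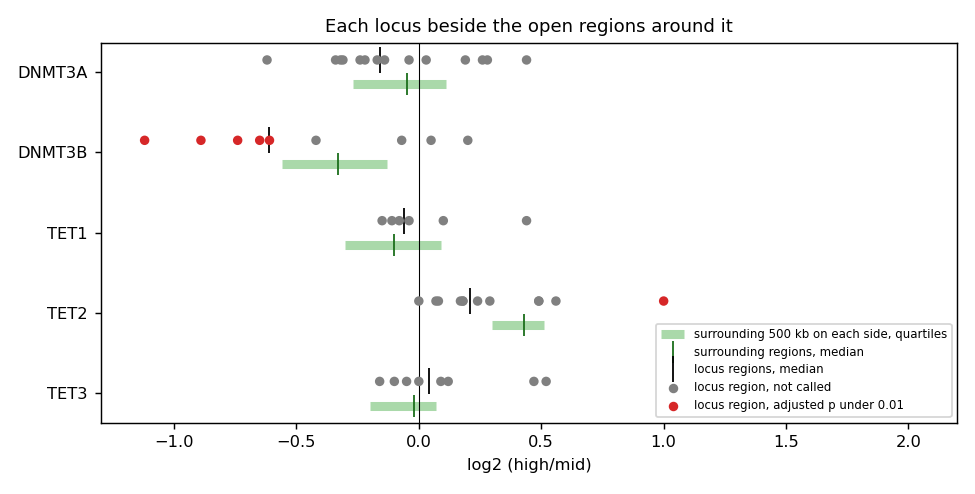
Log2 fold change of high over mid (x axis) for the regions of each locus (points, red where adjusted p is under 0.01) with their median (black tick), above the quartiles (green bar) and median (green tick) of the regions within 500 kb on either side. The surrounding medians are -0.33 at DNMT3B and 0.43 at TET2, and the median of the TET2 regions, 0.21, lies below that of its surroundings.

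Fold change also varied with region width among all regions. Calls toward mid were made in 0.57% of regions under 1000 bp, 3.37% of those of 1000 bp to under 2000 bp and 20.7% of those of 2000 bp or wider. At the 5 loci the counts were 0 of 21, 3 of 17 and 2 of 11. The share at 2000 bp or wider (18.2%) was thus near the background of that width. The share in the middle class (17.6%) was above it, with all 3 of those calls in the DNMT3B window. Across the 49 regions width and log2 fold change had a Spearman's rho of -0.49, against -0.19 over all regions, a description over regions that share the same 6 libraries. With loess offsets on region width, DNMT3B region 4 had a log2 fold change of -0.53 and region 1 lost its call (adjusted p = 0.0507).

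**Figure D5:**
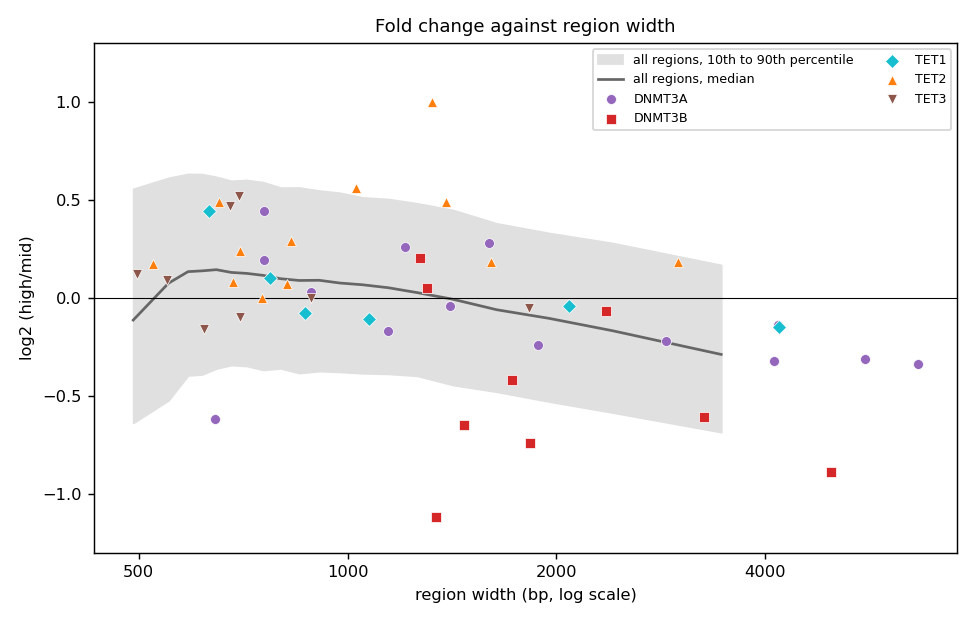
Log2 fold change of high over mid (y axis) against region width in bp (x axis, log scale) for the 49 regions, coloured by locus. The grey line and band are the median and the 10th to 90th percentile of all regions in 20 classes of width. DNMT3B regions 2, 3 and 9 and DNMT3A region 11 lie below the band, TET2 region 10 and, narrowly, TET2 regions 6 and 9 lie above it, and DNMT3B region 4 lies to the right of its wide end, at -0.89.

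At DNMT3A, 0 of 14 regions were called by edgeR or DESeq2 (which gave no adjusted p for 2), and 4 were higher in mid at an unadjusted p under 0.05 in each, a count with no background over all regions. The region with the most reads, region 13 (chr2:25561099-25566677), had 47.8, 51.1 and 48.7 CPM in high and 64.2, 60.4 and 58.4 CPM in mid. The populations did not overlap, but the log2 fold change of -0.31 (SE 0.12) did not pass the test (adjusted p = 0.0751, edgeR). The widest region, region 10 (chr2:25532159-25538806, 6648 bp), had 36.1, 46.9 and 45.4 CPM in high and 59.0, 52.7 and 49.9 CPM in mid, with a log2 fold change of -0.34 (SE 0.13, adjusted p = 0.0667). This was -0.17 without the replicate 1 pair (-0.18 and -0.15 without its high or mid sample alone, which repeats that fit). The values of regions 13 and 10 changed sign with loess offsets on width (0.08 and 0.10), and both regions passed the test with offsets per chromosome (adjusted p = 0.00795 and 0.00968). The smallest p-value belonged to region 11 (chr2:25543600-25544244), with 4.39, 4.92 and 1.89 CPM in high and 4.51, 8.96 and 3.72 CPM in mid. Its samples overlapped, each high sample was below the mid sample of its number, and the log2 fold change of -0.62 (SE 0.21, adjusted p = 0.0383) passed the threshold without the replicate 1 pair (-0.93, adjusted p = 0.00156), without high replicate 1 (-0.94) and without mid replicate 1 (-0.91). These single-sample fits repeat the fit without the pair. The most positive region was region 6 (chr2:25508604-25509361), with 3.14, 3.75 and 3.07 CPM in high and 2.55, 2.64 and 2.15 CPM in mid (log2 fold change 0.44, SE 0.23, adjusted p = 0.203).

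At TET2, region 10 (chr4:106146430-106147753, 1324 bp) rose in the high population. It had 5.02, 5.54 and 4.04 CPM in high (88, 90 and 109 reads) and 2.89, 2.38 and 2.03 CPM in mid (77, 55 and 53 reads). Every high sample was above every mid sample, with a log2 fold change of 1.0 (SE 0.21, adjusted p = 0.000918, edgeR), a 1.99-fold difference. The call ended in 7 of the 25 alternatives, and DESeq2 gave no adjusted p. It ended with no replicate block (adjusted p = 0.0186, edgeR) and with a batch that set replicate 2 apart (0.027). Offsets per chromosome (0.0141) and from neighbouring regions (0.0811) also ended it. So did leaving out the replicate 2 pair, high replicate 2 or mid replicate 2 (0.0689 and 0.0709 for the single samples). The log2 fold change lay between 0.57 and 1.10 over the 25 alternatives. The fits without a single replicate 2 sample repeat the one without that pair (adjusted p = 0.0739, edgeR). Relative to region 3, the TET2 region with the most reads, its reads were 0.132, 0.192 and 0.138 times in the high samples and 0.0870, 0.0984 and 0.0749 times in the mid samples, which did not overlap.

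The other 11 TET2 regions were not called, and none had a negative log2 fold change (0.00 to 0.56). Region 3 (chr4:106066479-106069473, 2995 bp) had 38.1, 28.8 and 29.2 CPM in high and 33.2, 24.2 and 27.1 CPM in mid, overlapping, with a log2 fold change of 0.18 (SE 0.13, adjusted p = 0.362, edgeR). It turned to -0.22 with offsets from neighbouring regions. Region 9 (chr4:106131913-106132939), next to region 10 and chosen after its values were seen, had 5.59, 6.40 and 3.78 CPM in high and 3.76, 3.51 and 3.22 CPM in mid (log2 fold change 0.56, SE 0.20, adjusted p = 0.0586).

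At TET1, edgeR called 0 of 6 regions, and 0 had an unadjusted p under 0.05 by edgeR or by DESeq2, which gave no adjusted p for 3 of them. Region 2 (chr10:70319550-70323732, 4183 bp) held about as many reads as the other 5 together, 48.2% of the locus in the high population and 50.4% in mid. It had 33.4, 35.8 and 40.7 CPM in high and 49.6, 33.8 and 40.1 CPM in mid, where only mid replicate 1 stood apart, and the log2 fold change was -0.15 (SE 0.13, adjusted p = 0.464, edgeR). Without the replicate 1 pair it was 0.03, and without mid replicate 1 alone, which repeats that fit, 0.05. Region 5 (chr10:70391694-70392324) had the most positive value, with 1.65, 2.52 and 1.96 CPM in high and 1.43, 2.08 and 1.11 CPM in mid (log2 fold change 0.44, SE 0.29, adjusted p = 0.337). Regions 4 and 5 were 31.0 kb apart, the longest gap between neighbouring listed regions at any of the 5 loci. Stretches from the outermost regions to the window ends were not counted.

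At TET3, edgeR called 0 of 8 regions, and 0 had an unadjusted p under 0.05 by edgeR or by DESeq2, which gave no adjusted p for 7 of them. The region with the most reads, region 1 (chr2:74252756-74254579), had 9.24, 8.43 and 10.9 CPM in high and 10.8, 9.78 and 9.12 CPM in mid (log2 fold change -0.05, SE 0.17, adjusted p = 0.867, edgeR). Region 3 (chr2:74270242-74270939) had the largest positive value, with 2.28, 3.20 and 2.56 CPM in high and 1.73, 2.47 and 1.49 CPM in mid (log2 fold change 0.52, SE 0.26, adjusted p = 0.182), and mid replicate 2 overlapped the high samples. Region 4 (chr2:74281157-74281778) had 2.62, 2.03 and 2.04 CPM in high and 1.84, 2.16 and 3.53 CPM in mid (log2 fold change -0.16, SE 0.26, adjusted p = 0.737), where mid replicate 3 alone was high. TET3 was the locus with the lowest level per kilobase, and with these counts the SE of the log2 fold change ran from 0.17 to 0.30.

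Among 4 other genes of the pathway, 10 regions were listed, of which 2 were called higher in mid and 0 higher in high (edgeR; 0 of the 10 were higher in high at an unadjusted p under 0.05), and 9 had a negative log2 fold change. Of all regions 3.77% were called higher in mid, and of those at least 2000 bp wide, as both called ones were (3250 and 4352 bp), 20.7%. Neither passed with no replicate block (adjusted p = 0.0344 at UHRF1 and 0.0164 at DNMT3L, edgeR). UHRF1, the cofactor of maintenance methylation, had a called region at chr19:4907998-4911247, with 13.2, 19.7 and 14.5 CPM in high and 21.3, 30.4 and 22.9 CPM in mid (log2 fold change -0.66, SE 0.14, adjusted p = 0.000837). The DNMT3L window had one at chr21:45658922-45663273, with 35.7, 36.9 and 46.4 CPM in high and 64.9, 57.3 and 58.2 CPM in mid (log2 fold change -0.61, SE 0.12, adjusted p = 0.000525), at the edge of the window. The 1 region of DNMT1, chr19:10304490-10306366, had a log2 fold change of -0.46 (adjusted p = 0.0350), and the 2 regions of TDG had -0.19 and 0.09 (adjusted p = 0.343 and 0.679). Over the 6 samples the log2 total of DNMT3B was most like that of DNMT3L (Pearson's r = 0.99) and least like that of TET2 (r = -0.80), a description over samples that share 2 populations. The called region at the edge of the DNMT3L window held 72.5% of the DNMT3L total in high and 75.3% in mid. To which gene that region belongs was not determined. For TET2 the nearest was TDG (r = 0.48), for DNMT3A it was DNMT3B (r = 0.90), for TET1 DNMT3A (r = 0.65) and for TET3 TET1 (r = 0.43).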

How the data were processed

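Per the study's methods, the authors trimmed the FAST-ATAC reads, aligned them to hg19 with BWA (0.7.15 in the submitters' processing notes), dropped duplicates and moved each read to its Tn5 cut site. MACS (1.4.2 in those notes) was run on the alignments of all replicates combined. The peaks of the populations were merged into a single list without ENCODE blacklist regions, for which the authors deposited raw read counts, not normalized. Calls in single replicates are therefore unknown. Starts were taken as counting from 0 and are printed 1 higher.

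The counts went into edgeR 4.0.16 (R 4.3.3), with TMM factors, no filter and the quasi-likelihood test. Adjustment was by Benjamini-Hochberg over the 118556 regions with a threshold of 0.01. DESeq2 1.42.0 and loess offsets from limma 3.58.1 (span 0.3) served as alternatives, listed with the others in the closing section. The edgeR fit with the block was tested on simulated data. A block was used because the study's model held a batch term. As a check of the pairing, deviations from the group mean were correlated over regions. Samples with the same number gave r between 0.19 and 0.30, against -0.26 to 0.06 for other pairs of the 2 populations. The methods call the samples biological replicates, without saying whether cultures were separate. Totals of 15486251 to 29025274 per sample set the counting error, and PCR copies are not separate molecules.

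Within each locus the text names the region with the highest mean CPM, the widest, the largest change in each direction, the smallest p-value and all called regions. The members and lists were chosen with earlier results of these data known. Windows of the other genes were set by hand from known hg19 positions. No hg19 genome or annotation was used here, so exons, introns and start sites are not given. RefSeq promoters (GRCh38.p14) matched all 5 genes.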

Additional observations from a re-analysis of the deposited data

How the results depend on the processing

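The alternatives were chosen with earlier results of these data known, and the offsets per chromosome and from neighbouring regions and the batches that set replicate 2 or 3 apart were added after the data were seen. With the replicate block there were 5 mid calls and 1 high call. Mid calls dropped to 2 and high calls to 0 with no replicate block, and likewise where a batch term separated replicate 2 from the rest, while separating replicate 3 left 3 mid calls. DESeq2 gave 3 and 0 and no adjusted p for TET2 region 10. Offsets from neighbouring regions gave 2 and 0, offsets per chromosome gave 0 high and 6 mid calls, without DNMT3B regions 1 and 2 (adjusted p = 0.0656 and 0.0991, edgeR) and with DNMT3A regions 10 and 13, and windows shortened by 10 kb gave 2 mid calls. Across fits that left out a pair or a single sample, mid calls ran from 2 to 5 and high calls from 0 to 1, the lowest with replicate 2 of either population left out, and 3 mid calls were left without mid replicate 1. With the block, leaving out a single sample takes its pair out of the comparison. The single-sample fits thus repeat those without a pair, and do not show which sample a result rests on. Over all regions, calls higher in mid and in high also fell, from 4472 and 2747 to 438 and 371 without the replicate 2 pair. They were 924 and 176 with replicate 2 set apart, 2472 and 1063 with offsets from neighbouring regions, and 3776 and 990 with DESeq2. The cause was not tested. A batch term for replicate 1, the likelihood ratio test, RLE, upper quartile, total counts, both loess offsets, both filters on low counts, the threshold of 0.05 and assignment by any overlap kept both counts within 1.5 times.

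The log2 ratio of locus totals moved beyond the SD between pairs only at TET3 with total counts (0.14 against 0.05). Over those 7 alternatives, none with loess, chromosome or neighbour offsets, it lay between -0.76 and -0.46 at DNMT3B, 0.21 and 0.37 at TET2, and -0.28 and -0.11 at DNMT3A (-0.11 without replicate 1), and at TET1 it went from -0.09 to 0.00 with total counts and 0.06 without replicate 1. The median over regions, under 25 alternatives, ran from -0.77 to -0.24 at DNMT3B and from -0.19 to 0.34 at TET2, which turned to -0.01 with offsets per chromosome and -0.19 with offsets from neighbours. The 17 regions named by the rule were refitted under the alternatives. The 6 called ones kept their sign. Of the 11 uncalled ones, these changed it: TET3 region 1 (0.04 with total counts, 0.03 with loess on width, 0.00 with neighbouring regions, 0.01 to 0.04 without a replicate 1 or 2, and down to -0.22 without a replicate 3), TET1 region 2 (0.06 with loess on level, 0.16 with loess on width, 0.03 or 0.05 without a replicate 1, and down to -0.27 without a replicate 2), DNMT3A regions 10 and 13 (0.10 and 0.08 with loess on width), TET2 region 3 (-0.04 with offsets per chromosome, -0.22 from neighbours) and TET3 region 4 (0.22 to 0.23 without a replicate 3, and down to -0.51 without a replicate 1). Total counts shifted the median of all regions to 0.12, against 0.03 with TMM. Read numbers limit the narrow TET1, TET2 and TET3 regions most, where SEs reached 0.30.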
